A study of Homo sapiens with 6 samples.

Results

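The splicing regulators described here were 33 human genes, of which 20 belong to the HNRNP family and 13 to the SRSF and TRA2 family of SR proteins. They were taken by gene symbol among 12472 human genes matched in the matrices. GENCODE lists 585 transcripts for them, of which 295 were found in the matrices, among 46484 human transcript identifiers in all. In human cells, 221 of these transcripts held 6598 counts. All 33 genes were listed in at least 1 library.

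HNRNP proteins coat nascent RNA and often repress the use of splice sites, whereas SR proteins bind exons through RNA-recognition motifs and often favour their use. Many of these genes also splice their own transcripts into forms that carry an early stop codon or keep an intron. The first are removed by nonsense-mediated decay (NMD), and the second often stay in the nucleus. Genes of both families therefore serve as well-known examples of splicing control by the protein product itself.

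The data were single-cell transcript counts read on nanopore instruments from a mixture of human and mouse cells, which the labels describe as the myeloma lines JJN3 and 5TGMG1. No treatment other than the number of PCR cycles was labelled. A pair of libraries came from 10X Chromium at 30 and 35 cycles, and 3 libraries came from Drop-seq at 25, 30 and 35 cycles. A further Drop-seq sample gave only read numbers and was not used. Each group was 1 library, so no difference had a replicate check and no test between groups was made. Intervals are 95% intervals and cover counting error only.

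Barcodes were ranked by total count and cut at the labelled cell number, and those with at least 90% human counts were taken as human cells. They numbered 1006 and 911 in 10X at 30 and 35 cycles, and 251, 166 and 165 in Drop-seq at 25, 30 and 35 cycles. Their human counts were 161961, 199308, 115245, 67144 and 93499 in the same order, and this order is kept below wherever 5 values are given. Levels are given in CPM, counts scaled to 1000000 human counts of the library's human cells. The 10X pair shared 722 barcodes of human cells, and the Drop-seq libraries shared 133 to 145 in each pair, so these were not separate sets of cells.

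The labels name the same human line on both platforms, but the human cells differed in their markers. In 10X, 10 of 10 plasma cell markers were listed, with 1095 and 876 counts, whereas the T cell markers held 2 counts in each library, both from LAT. In Drop-seq, 11, 6 and 7 of 15 T cell markers were listed, with 354, 239 and 298 counts led by CD3G and CD1E. MZB1 was the only plasma cell marker listed there, with 15, 5 and 7 counts. SDC1, IRF4, PRDM1 and JCHAIN, which define plasma cells, were at 0 in the Drop-seq human cells, which goes against a myeloma line. The study's text also names Jurkat, a human T cell line, among its cultures. The smallest stored value also differed, being 2 in 10X, 1 in Drop-seq at 25 cycles and 3 in the other Drop-seq libraries. Platform, human cells and smallest value cannot be told apart in any difference between 10X and Drop-seq.

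Counts of transcripts of one gene were not independent. When at least 2 transcripts of a member were listed in a cell, all of them held the same value in 93.9% and 90.6% of such cases in 10X, and in 68.9%, 63.6% and 54.7% in Drop-seq. The highest stored value of a member transcript in a cell was 5 and 6 in 10X and 20, 18 and 20 in Drop-seq. Summing the transcripts of a gene in a cell gave 2.01 to 2.95 times the value of its highest transcript. The study's methods mapped reads to a transcriptome, and which of several matching transcripts a read was counted on was not examined. Gene totals are therefore sums over transcripts that may share molecules, and the intervals understate their error.

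The splice sites of introns kept by 5 of the 6 most abundant retained-intron transcripts are shown first. The most abundant of the 6, HNRNPU-231, kept no such intron. Each window of 30 bases is on the hg38 minus strand, 5′ to 3′, and the capitals mark the first or last 2 bases of the intron. Intron numbers are those of the MANE Select transcript, the reference form of each gene.
HNRNPU intron 3, 5′ splice site, chr1:244862441-244862470: cttgatacttGTaagtgaagctgtttctcc
HNRNPU intron 3, 3′ splice site, chr1:244860465-244860494: agtatttgatataattacAGataattgtga
HNRNPA2B1 intron 1, 5′ splice site, chr7:26200552-26200581: cgcgatggagGTaacgggtttgaaatcaat
HNRNPA2B1 intron 1, 3′ splice site, chr7:26197723-26197752: aatggtattttcctttgcAGagagaaaagg
SRSF4 intron 2, 5′ splice site, chr1:29160355-29160384: tctggacgcaGTaagcattcaaagggcata
SRSF4 intron 2, 3′ splice site, chr1:29159477-29159506: tttatttgaaccttccaaAGgtggatatgg

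All 3 introns had the usual GT and AG ends. HNRNPU intron 3 had 1986 bases (35.1% G and C), HNRNPA2B1 intron 1 had 2839 bases (40.4%) and SRSF4 intron 2 had 888 bases (29.8%). Each lay inside the coding region of the MANE transcript.

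Members together made up 1.11% and 1.10% of human counts in 10X and 0.971%, 0.876% and 0.965% in Drop-seq. They held 1797 and 2192 counts in 10X and 1119, 588 and 902 in Drop-seq, or 11095, 10998, 9710, 8757 and 9647 CPM. The HNRNP family stayed within 7834 to 8685 CPM. The SR family held 3223 and 2313 CPM in 10X against 1440, 923 and 1358 in Drop-seq, and its intervals on the 2 platforms did not overlap. SR genes thus held 29.0% and 21.0% of member counts in 10X and 14.8%, 10.5% and 14.1% in Drop-seq. Values below 3 were also left out everywhere in the same cells, a setting chosen after seeing the data. The SR share was then 37.9% and 31.1% in 10X and 17.0%, 10.5% and 14.1% in Drop-seq, again higher in both 10X libraries. Of the SR counts left in 10X, SRSF6 held 90 of 108 at 30 cycles and 25 of 105 at 35 cycles. The 30-cycle share thus rested mostly on SRSF6. In 10X, 31 and 33 members were listed, and in Drop-seq 23, 17 and 20. Of the 13 SR genes, 1 and 0 were at 0 in 10X and 6, 9 and 8 in Drop-seq. The Drop-seq human cells held fewer human counts, and the 30- and 35-cycle Drop-seq libraries stored no value below 3. These numbers of genes at 0 were not set against those of all human genes. Of 31 members with counts in both 10X libraries, 9 (29.0%) had none in Drop-seq human cells. Among 4509 other human genes with such counts, this share was 55.9%, but these shares were not matched for level. Within 3 to 26 counts in each 10X library, they were 57.1% of 14 members and 58.2% of 2241 other genes.

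These counts came from few cells. At least 1 member count was found in 333 of 1006 and 314 of 911 human cells in 10X, and in 101 of 251, 34 of 166 and 52 of 165 in Drop-seq. After each cell was thinned to 200 counts, the share of cells with a member count was 52.4% and 46.9% in 10X and 37.6%, 18.2% and 30.1% in Drop-seq, with 798, 585, 78, 56 and 19 shallower human cells left out. Mouse cells, which should hold none, gave 1.79%, 1.26%, 6.72%, 1.05% and 0.353% after the same thinning. Unthinned, the human shares were 33.1%, 34.5%, 40.2%, 20.5% and 31.5%, and the mouse shares were 0.868%, 1.14%, 10.7%, 1.72% and 1.62%. Median depths were 118, 171, 271, 243 and 352 counts in human cells and 117, 171, 282.5, 278 and 417 in mouse cells. All these human shares lay above those of mouse cells. Single genes in Drop-seq at 25 cycles varied in this. HNRNPA1 was listed in 2.71% of mouse cells and 5.98% of human cells, and HNRNPU in 1.53% and 3.19%. HNRNPR was listed in 0.508% and 6.37%, whereas TRA2A was listed in 3 mouse cells and 1 human cell. Gene levels below were not corrected for counts in mouse cells.

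HNRNPU, a nuclear matrix and RNA-binding protein, held the most counts of any member over the 5 libraries. It had 411 counts in 63 cells and 524 in 79 cells in 10X. In Drop-seq it had 65 counts in 8 cells, 118 in 4 cells and 117 in 7 cells. Its level was 2538 and 2629 CPM in 10X and 564, 1757 and 1251 CPM in Drop-seq. At 30 cycles, 72 of its 118 Drop-seq counts came from 1 cell, so the Drop-seq values depend on a few cells.

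HNRNPA1, a shuttling repressor of exon inclusion, showed the reverse order. It had 48 counts in 12 cells and 154 in 29 cells in 10X, and 162, 117 and 126 counts in 15, 4 and 6 cells in Drop-seq. Per kilobase of counted transcript, its level was 77.5 and 226 CPM in 10X and 457, 539 and 411 in Drop-seq, whereas HNRNPU stood at 363 and 386 in 10X and 83.9, 197 and 142 in Drop-seq. Processed pseudogenes nearly copy this gene, and HNRNPA1P54 alone held 148 and 111 counts in 10X but 3, 5 and 0 in Drop-seq. How reads were divided between gene and pseudogenes is uncertain, and the level of HNRNPA1 in 10X cannot be read apart from them. With all its numbered pseudogenes added, HNRNPA1 came to 1247 and 1370 CPM in 10X and to 1817 and 1348 in Drop-seq at 30 and 35 cycles.

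HNRNPC, which coats nascent RNA as tetramers, had 78 and 141 counts in 10X and 154, 69 and 83 in Drop-seq. In the 25-cycle library, 77 of its 154 counts came from 1 cell. HNRNPA2B1, a reader of short motifs that also sorts RNA into vesicles, had 112, 226, 135, 9 and 53 counts. HNRNPK, which binds C-rich RNA and DNA, had 127, 82, 100, 17 and 75 counts. The CPM of HNRNPC was higher in each Drop-seq library (1336, 1028 and 888) than in either 10X library (482 and 707). Its intervals in Drop-seq at 30 and 35 cycles (800 to 1301 and 707 to 1100) overlapped that of 10X at 35 cycles (596 to 834). HNRNPC was listed in 15, 27, 10, 3 and 3 human cells, or 1.49%, 2.96%, 3.98%, 1.81% and 1.82%, so the share of cells did not follow the platform. The levels of HNRNPA2B1 and HNRNPK overlapped between the platforms.

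HNRNPR, an RNA-binding relative of HNRNPQ, had 29 and 43 counts in 10X and 74, 55 and 89 in Drop-seq, or 179 and 216 CPM against 642, 819 and 952. HNRNPA3, a close relative of HNRNPA1, had 26 and 58 counts in 10X and 82, 46 and 79 in Drop-seq, or 161 and 291 CPM against 712, 685 and 845. SRSF10, an SR protein that turns repressive when dephosphorylated, had 16 and 23 counts in 10X and 47, 25 and 40 in Drop-seq. All 3 were higher in each Drop-seq library than in either 10X library.

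HNRNPDL, a relative of HNRNPD, had 142 and 147 counts in 10X and 34, 3 and 21 in Drop-seq. HNRNPD, also known as AUF1 for its binding of AU-rich elements, had 64, 87, 22, 12 and 30 counts. HNRNPH1, which binds G-rich tracts, had 115, 63, 49, 36 and 21 counts. Only HNRNPDL among these 3 had every 10X level (877 and 738 CPM) above every Drop-seq level (295, 44.7 and 225) by more than the counting intervals.

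**Figure D1:**
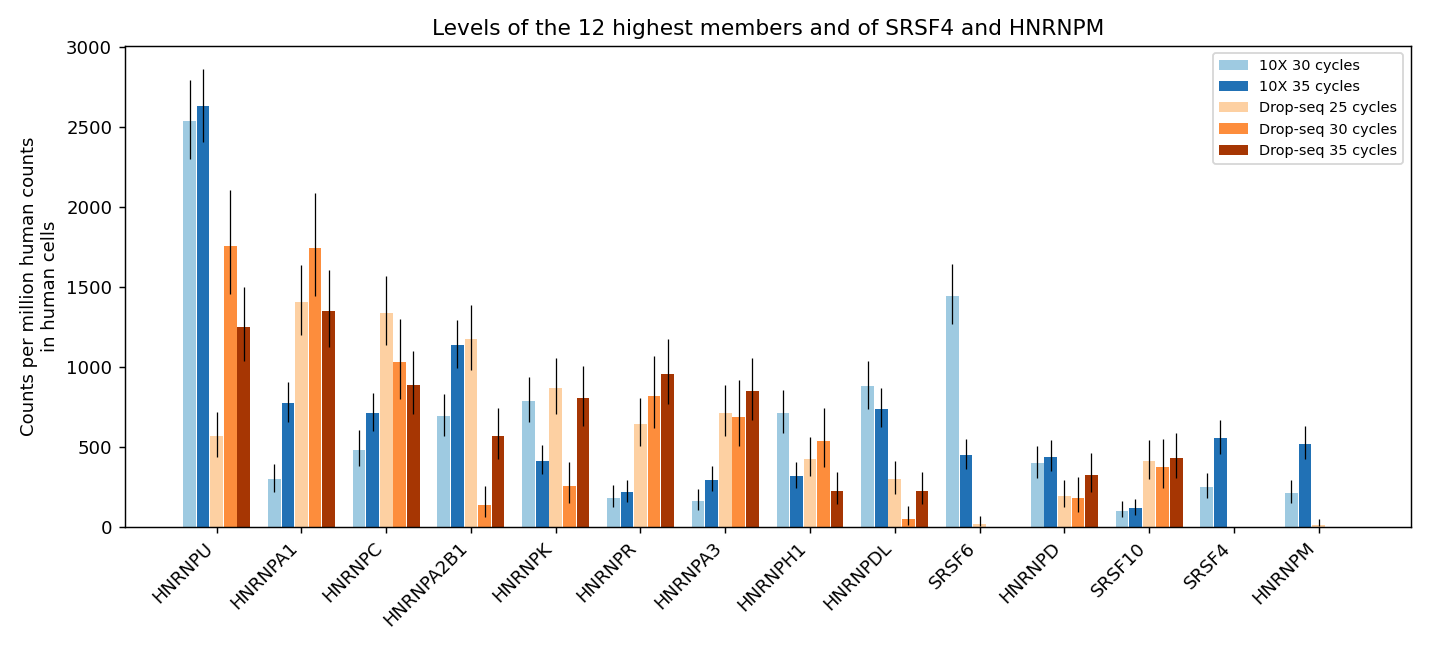
CPM in human cells (vertical axis) for the 12 members with the highest mean level and for SRSF4 and HNRNPM, with 1 bar per library and exact Poisson 95% intervals. HNRNPU, SRSF6, SRSF4 and HNRNPM stood higher in 10X, and HNRNPR, HNRNPA3 and SRSF10 stood higher in Drop-seq, with 0 counts of SRSF4 in all 3 Drop-seq libraries.

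SRSF6, an SR protein that acts on exon choice in many tissues, was counted mainly in 10X. There it had 234 counts in 101 cells at 30 cycles and 89 counts in 39 cells at 35 cycles, all on its MANE transcript SRSF6-201 at chr20:43457896-43464243. SRSF6 was the most widely listed member at 30 cycles, in 10.0% of human cells (8.25 to 12.1%), whereas at 35 cycles HNRNPU was listed in more cells, 79. None of the 806 and 881 mouse cells in 10X held a count of it. In Drop-seq it had 2 counts in 1 cell at 25 cycles and was listed at 0 at 30 and 35 cycles. Values below 3 are missing from the last pair, and leaving them out of the same 10X cells left SRSF6 with 90 counts in 29 cells and 25 counts in 7 cells. Over all barcodes of a library, it had 372, 164, 19, 0 and 0 counts.

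SRSF4, a larger SR protein with a long RS domain, and HNRNPM, a repressor that binds GU-rich RNA, were likewise almost absent from Drop-seq human cells. SRSF4 had 40 counts in 15 cells and 110 counts in 30 cells in 10X and was at 0 in all 3 Drop-seq libraries. The 25-cycle library stores single counts, and its count of 0 allows up to 3 counts, or 26.0 CPM, below the 10X levels of 247 and 552. Over all barcodes of a library, SRSF4 had 82, 210, 9, 0 and 0 counts. HNRNPM had 34 and 103 counts in 10X, 1 count in Drop-seq at 25 cycles and 0 in the others. SRSF1, SRSF5, SRSF8, TRA2B, HNRNPAB, HNRNPH2, HNRNPLL and HNRNPUL2 also had counts in both 10X libraries and none in Drop-seq human cells, at 3 to 26 counts in each 10X library. They were 8 of 14 members in that range of counts, or 57.1%, beside 58.2% of 2241 other human genes in the same range, so their absence from Drop-seq was near the background.

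The isoform question asked how much of each gene's counts lay on transcripts that GENCODE calls coding, retained intron or NMD. Of 221 member transcripts with counts, 131 were coding, 45 were retained-intron and 31 were NMD transcripts, and 14 had no defined coding sequence. Coding transcripts held 73.2% and 70.7% of member counts in 10X and 83.2%, 75.7% and 79.5% in Drop-seq. The MANE transcripts held 38.4% of all coding counts. Of coding counts, 71.7% lay on transcripts that end within 100 bases of the MANE end, against 21.0% of retained-intron and 34.6% of NMD counts.

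Retained-intron transcripts held 19.4% (17.6 to 21.3%) and 19.5% (17.9 to 21.2%) of member counts in 10X. In Drop-seq they held 6.26% (4.91 to 7.84%), 13.6% (10.9 to 16.6%) and 9.53% (7.70 to 11.6%). Over all other human genes the shares were 9.07%, 7.05%, 6.82%, 6.33% and 6.71%. The members stood above the other genes in 4 libraries and not at 25 cycles of Drop-seq. The other genes that have a retained-intron transcript in GENCODE are a closer comparison, and their shares were 16.3%, 13.8%, 9.29%, 8.75% and 9.22%. Against these, the members were higher on 10X at either cycle number. For Drop-seq they were higher at 30 cycles, lower at 25 cycles and within counting error at 35 cycles.

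Much of this signal lay in HNRNPU. Without it, the retained-intron share of the remaining 32 members fell to 12.5%, 13.7%, 4.36%, 4.47% and 4.08%. Those values lay below the other genes with a retained-intron transcript in 4 libraries, and within counting error of them in 10X at 35 cycles. HNRNPU was left out after its values were seen.

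**Figure D2:**
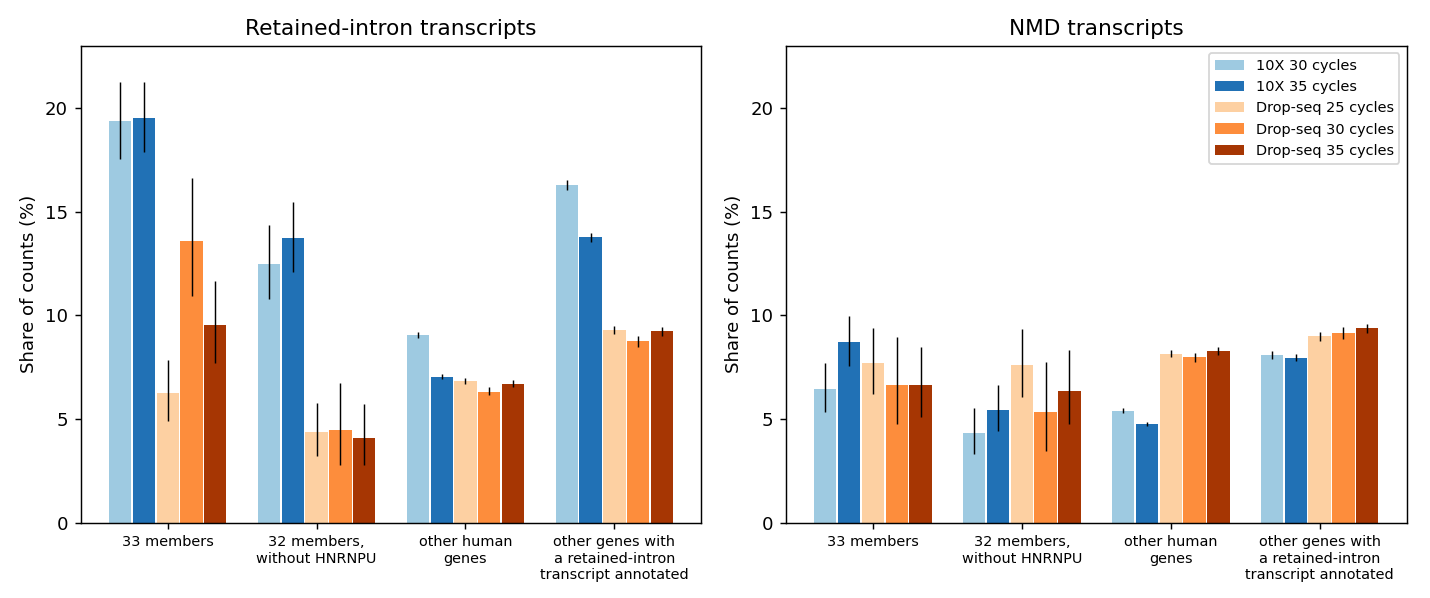
Share of counts in human cells (vertical axis, %) on retained-intron transcripts (left) and NMD transcripts (right) for the members, the members without HNRNPU and 2 sets of other human genes, by library, with exact Clopper-Pearson 95% intervals. The retained-intron share of the members was 19.4% and 19.5% in 10X and fell to 12.5% and 13.7% without HNRNPU.

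Within HNRNPU, retained-intron transcripts held 42.6% and 38.0% of counts in 10X and 36.9%, 50.0% and 46.2% in Drop-seq, and all 5 intervals overlapped. The leading one, HNRNPU-231 (ENST00000649899), had 74, 95, 9, 27 and 28 counts. The leading coding transcript, HNRNPU-205 (ENST00000444376), had 67, 103, 7, 27 and 29 counts, so the values in each library were close. Cells with a transcript are added over the libraries here, although libraries of a platform share barcodes. Of 89 cells with HNRNPU-231 (76 different barcodes), 72 held it at the highest coding value of the gene, and 9 listed no coding transcript. HNRNPU-231 kept none of the 13 MANE introns within an exon and shared 12 of its 15 junctions with the MANE transcript. It ended 9610 bases past the MANE end of the gene, which lies at chr1:244850297-244864543. HNRNPU-209 (38, 45, 3, 9 and 7 counts) and HNRNPU-217 (47, 37, 7, 0 and 0 counts) were the transcripts that kept intron 3. They ended 3901 and 3170 bases before the MANE end.

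HNRNPA2B1 (MANE transcript at chr7:26189927-26200746) had a retained-intron share of 39.3% and 42.5% in 10X against 13.3% in Drop-seq at 25 cycles. In Drop-seq at 30 and 35 cycles the shares were 33.3% of 9 counts and 26.4% of 53 counts, with intervals that overlapped those of 10X. HNRNPA2B1-206 (18, 48, 11, 3 and 11 counts) kept intron 1 and ended at the MANE end. HNRNPA2B1-204 (24, 48, 7, 0 and 3 counts) kept introns 1 and 10. The leading coding transcript HNRNPA2B1-201 had 27, 60, 31, 3 and 17 counts, which exceeded each retained-intron form in every library apart from HNRNPA2B1-206 at 30 cycles of Drop-seq, where both had 3.

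SRSF4 (MANE transcript at chr1:29147743-29181900) had 20 of 40 and 58 of 110 counts on SRSF4-207 in 10X, or 50.0% and 52.7%. Of 38 cells with SRSF4-207 (34 different barcodes), 25 held it at the highest coding value and 13 listed no coding transcript. SRSF4-207 kept intron 2, and 16 of the 20 genomic bases after its annotated end were A, against 3 to 7 for the other 5 named retained-intron transcripts. HNRNPH1 had shares of 39.1%, 33.3%, 26.5%, 25.0% and 23.8% with overlapping intervals. HNRNPA1, HNRNPA3, HNRNPDL and SRSF6 had no retained-intron count in any library. The retained-intron signal was thus held by a few genes. Of the members with at least 50 counts, 4 of 10, 5 of 13, 2 of 8, 1 of 4 and 2 of 7 had at least 10% of their counts on such transcripts, beside 22.4%, 23.2%, 20.4%, 22.6% and 24.1% of the other genes with as many counts.

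**Figure D3:**
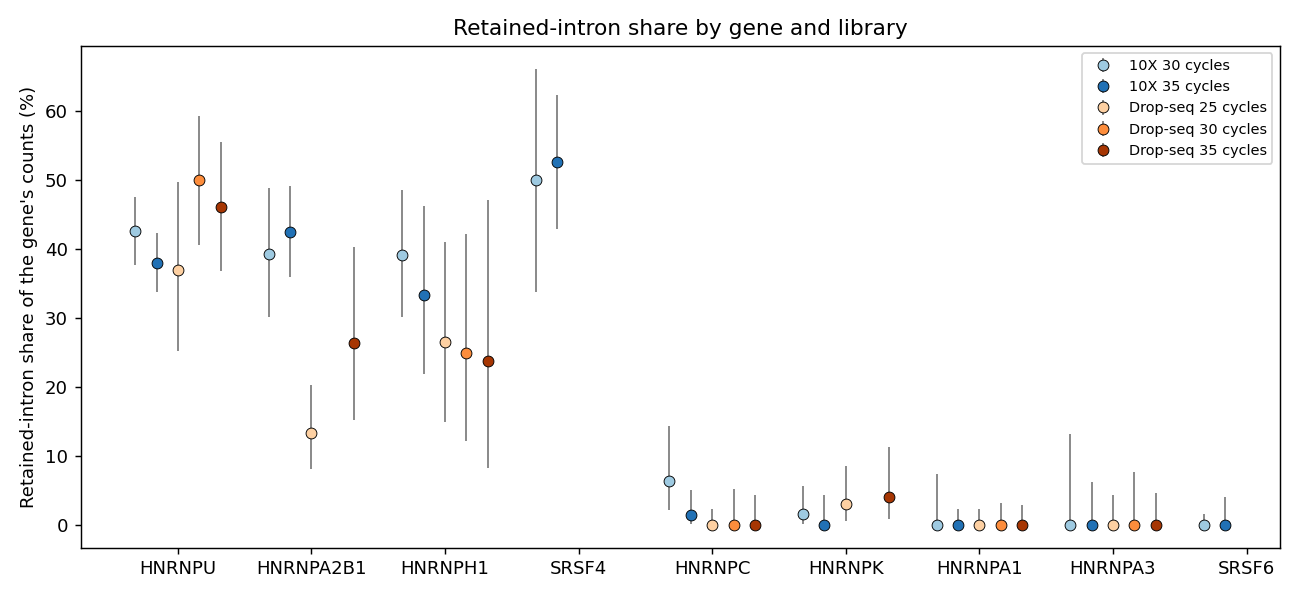
Retained-intron share of a gene's counts (vertical axis, %) for 9 members by library, shown where the gene had at least 20 counts, with exact Clopper-Pearson 95% intervals. HNRNPU, HNRNPA2B1, HNRNPH1 and SRSF4 lay between 13.3% and 52.7%, whereas HNRNPA1, HNRNPA3 and SRSF6 lay at 0%.

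Whether a cell listed a retained-intron transcript on its own was read from pairs of a cell and a gene. Members had 415, 426, 142, 39 and 64 such pairs. A retained-intron transcript was listed in 30.1%, 36.6%, 21.8%, 23.1% and 21.9% of them, beside 27.0%, 25.2%, 25.8%, 21.3% and 22.2% for the other genes with such a transcript annotated. With HNRNPU left out, the members stood at 19.6%, 25.9%, 17.2%, 14.3% and 14.0%, whereas HNRNPU alone stood at 88.9% and 83.5% in 10X. Over all members, a retained-intron transcript was listed without any coding transcript of the gene in 50 of 415 and 36 of 426 pairs in 10X. For those other genes this was 16.8% and 12.2%. In Drop-seq this was so in 2 of 142, 1 of 39 and 2 of 64 pairs, beside 3.97%, 4.20% and 3.99% for those other genes. Of 161, 203, 45, 13 and 18 retained-intron values, 93, 148, 29, 10 and 6 equalled the highest coding value of the gene in the same cell, and 3, 8, 2, 0 and 3 exceeded it.

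NMD transcripts held 6.46% (5.36 to 7.69%) and 8.71% (7.57 to 9.97%) of member counts in 10X and 7.69%, 6.63% and 6.65% in Drop-seq. The other human genes had 5.40% and 4.78% in 10X and 8.16%, 7.97% and 8.27% in Drop-seq. The members lay above the other genes beyond counting error only in 10X at 35 cycles. The other genes with a retained-intron transcript annotated had NMD shares of 8.08%, 7.95%, 8.99%, 9.15% and 9.38%. Against these, the members were lower in the 30-cycle 10X and the 35-cycle Drop-seq libraries, and the intervals overlapped in the other 3. In Drop-seq at 30 cycles they barely did, at 4.76 to 8.96% for members and 8.88 to 9.42% for those other genes. Of the 35-cycle 10X counts, HNRNPU-228, which shared the gene with the retained-intron forms above, held 87 of 191 on NMD transcripts, and without HNRNPU the share was 5.46%.

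The stop codons in extra exons of named NMD transcripts are shown, since the annotated coding sequence ends there. The HNRNPU-228 stop lies past the MANE end of the gene, so it is not an early stop within the MANE transcript. Each window is on the hg38 minus strand, 5′ to 3′, ends with the annotated stop codon in capitals, and lies in an exon that the MANE transcript lacks.
SRSF7-204, chr2:38749319-38749346: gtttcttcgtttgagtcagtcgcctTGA
TRA2A-211, chr7:23522289-23522318: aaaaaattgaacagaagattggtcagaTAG
HNRNPU-228, chr1:244848809-244848838: ctgtgtggaagagttaaagggcccaacTAA

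The SRSF7 exon had 449 bases, of which the first 25 were coding before the stop. SRSF7 regulates splicing and RNA export and had 6, 27, 56, 16 and 25 counts, of which 52 of the 56 came from 1 cell. SRSF7-204 had 0, 6, 12, 4 and 5 counts, and the MANE transcript SRSF7-201 had 2, 6, 12, 4 and 5. In the 6 cells with SRSF7-204 (4 different barcodes), its value equalled that of a coding transcript in 6. The TRA2A exon had 301 bases with 141 coding. TRA2A-211 and the MANE transcript TRA2A-201 had the same counts in every library, 15, 6, 1, 0 and 0, and the values were equal to a coding transcript in 11 of 11 cells. Inclusion of these exons could not be read apart from the coding forms in these counts.

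HNRNPM-214 lacked 2 MANE exons and had 8 and 32 counts in 10X, beside 12 and 39 for the MANE transcript HNRNPM-201. Its value equalled a coding one in 20 of 20 cells. HNRNPA2B1-203 had 4, 4, 17, 0 and 0 counts. It includes an exon of 36 bases that the MANE transcript lacks and removes an intron inside the last MANE exon. All 36 bases are coding, and the annotated stop lies outside that exon. HNRNPU-228 had 40, 87, 4, 10 and 5 counts. It ended 5097 bases past the MANE end, and its stop codon lay in an exon of 69 bases in that stretch.

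Of the 6 NMD transcripts named here, HNRNPM-214 was listed only in 10X and HNRNPA1-205 (ENST00000547566) only in Drop-seq. HNRNPA1-205 had 0 counts in both 10X libraries and 24, 15 and 10 in Drop-seq. The MANE transcript HNRNPA1-202 (chr12:54280726-54287087) had 23 and 60 counts in 10X and 55, 43 and 47 in Drop-seq. HNRNPA1-205 skips 1 MANE exon and removes an intron inside the last MANE exon. It was listed in 5, 1 and 1 cells of the Drop-seq libraries, which were 5 different barcodes. Its value equalled the highest coding value in 6 of these 7 cases and exceeded it in 1.

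The 30- and 35-cycle libraries asked whether more amplification moved the members. Summed over all members, the log2 ratio of 35 over 30 cycles was -0.01 (-0.10 to 0.08) in 10X and 0.14 (-0.01 to 0.29) in Drop-seq, on the log2 scale of CPM with 0.5 counts added. Single genes were compared where they had at least 100 counts over both libraries, and called at 2-fold or more, which is a rule of size. The median log2 ratio of all human genes tested in 10X was -0.19, whereas the calls were made against 0.

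In 10X, 3 of 12 members were at least 2-fold higher at 35 cycles, beside 10.2% of the 391 human genes tested. HNRNPA1 rose from 48 to 154 counts (log2 ratio 1.37, 0.91 to 1.88), HNRNPM from 34 to 103 (1.29, 0.73 to 1.90) and SRSF4 from 40 to 110 (1.15, 0.63 to 1.72). The cells with a count rose with them, from 12 to 29 of HNRNPA1, from 7 to 20 of HNRNPM and from 15 to 30 of SRSF4. The call of HNRNPA1 ended when its pseudogenes were added, since HNRNPA1 and pseudogenes together had 202 and 273 counts (log2 ratio 0.13, -0.13 to 0.40), a setting chosen after seeing the data. With only the highest transcript per gene and cell counted, none of the 3 genes had 100 counts over both libraries. HNRNPM then stood at 1.28, HNRNPA1 at 1.16 and SRSF4 at 0.79.

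In the other direction, 2 of 12 members were at least 2-fold lower at 35 cycles, beside 19.9% of human genes. SRSF6 fell from 234 to 89 counts (log2 ratio -1.69, -2.06 to -1.34) and HNRNPH1 from 115 to 63 (-1.16, -1.63 to -0.71). HNRNPK was not called, at 127 and 82 counts (-0.93, -1.35 to -0.52). With the median of ratios as scaling, HNRNPH1 moved to -0.86 and lost its call. SRSF6 kept its call in all 12 alternatives, at -2.71 to -1.39. HNRNPU, at 0.051 (-0.14 to 0.24), was called lower at -1.30 when values below 3 were left out of the same cells, and at -1.40 when human cells were also chosen anew. The members' median was 0.30 against -0.19 for all genes tested, and 8 of 12 members lay above 0 beside 172 of 391 of all genes. Among plasma cell markers, PRDM1 fell from 392 to 134 counts between the same libraries (-1.84), whereas JCHAIN stood at -0.64 and MZB1 at 0.18. Any part of a shift in cells in these ratios was not tested.

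**Figure D4:**
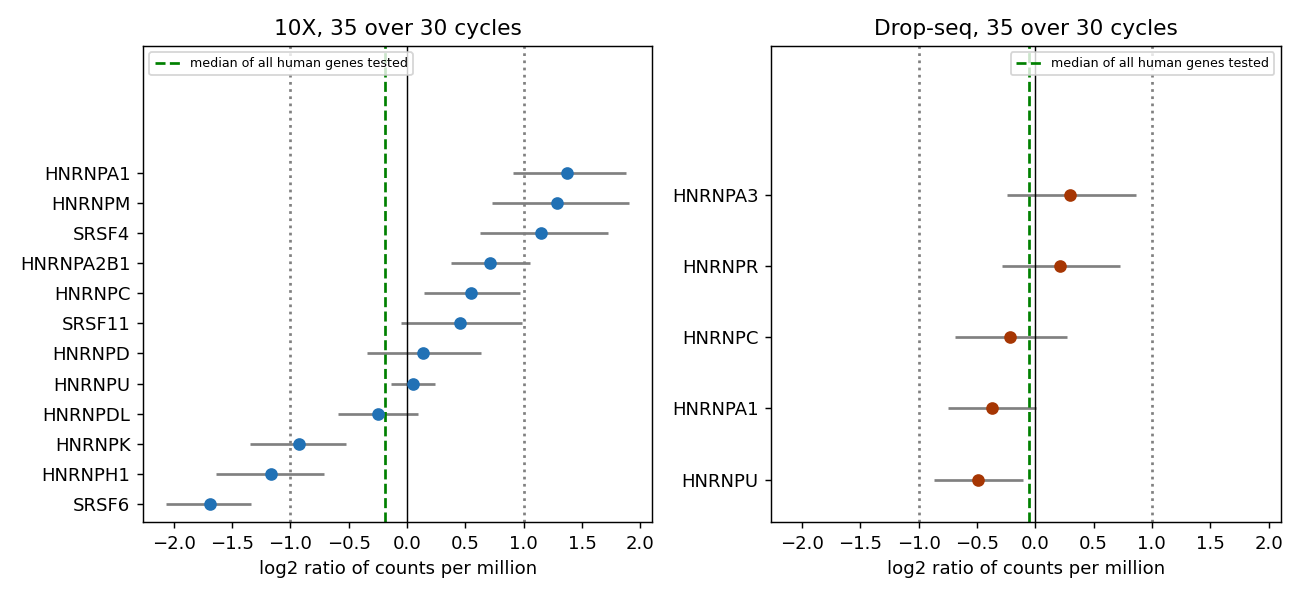
Log2 ratio of CPM, 35 over 30 cycles (horizontal axis), for the members tested in 10X (left) and Drop-seq (right), with exact conditional 95% intervals. Dotted lines mark 2-fold and the dashed line the median of all human genes tested. HNRNPA1, HNRNPM and SRSF4 lay above 1 and SRSF6 and HNRNPH1 below -1 in 10X, whereas all 5 Drop-seq members lay between -1 and 1.

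In Drop-seq, 0 of 5 members were called higher and 0 lower, beside 0.987% of the 304 human genes tested in each direction. HNRNPA1 stood at -0.37 (117 and 126 counts), HNRNPU at -0.49 (118 and 117), HNRNPC at -0.21 (69 and 83), HNRNPR at 0.21 (55 and 89) and HNRNPA3 at 0.30 (46 and 79). The interval of HNRNPU, -0.87 to -0.11, left out 0, and those of the other 4 included it. HNRNPA1 changed sign, to 0.20, when cells needed at least 100 counts. Each of these genes was counted in 3 to 7 cells per library.

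The 722 barcodes that both 10X libraries called human show how the changes were spread over cells. In them SRSF6 held 185 counts at the lower and 85 at the higher cycle number. It was listed in 69 of these cells only at 30 cycles, in 27 only at 35 cycles and in 10 at both. HNRNPU was listed in 31 only at 30 cycles, 54 only at 35 cycles and 14 at both. HNRNPA1 had 7, 23 and 4 such cells. For all 3 genes, most cells that listed the gene at one cycle number did not list it at the other.

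**Figure D5:**
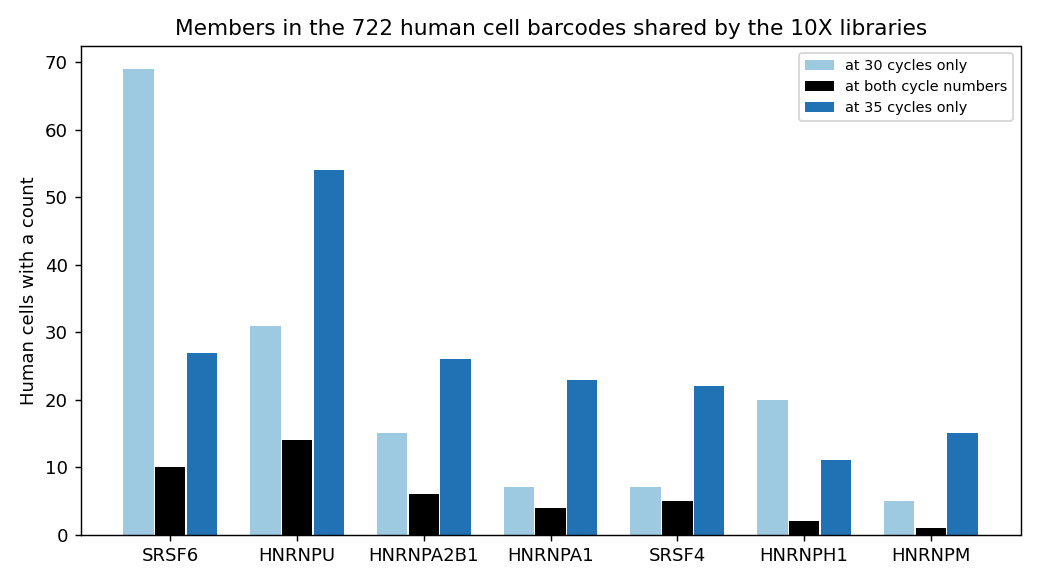
Number of human cells (vertical axis) with a count at 30 cycles only, at both cycle numbers or at 35 cycles only, for 7 members in the 722 barcodes shared by the 10X libraries. SRSF6 had 69, 10 and 27 such cells and HNRNPU 31, 14 and 54.

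Genes of the splicing machinery outside both families were counted in the same cells. The 30 core spliceosome genes held 2192 and 3246 CPM in 10X and 5909, 7179 and 6374 in Drop-seq, with 24, 26, 22, 17 and 20 of them listed. SF3B2 led in 10X and SNRPD2, an Sm protein, in Drop-seq. Of these genes, 2 were tested between cycle numbers in 10X, where SNRPD2 rose by 1.49 on the log2 scale and SF3B2 stood at 0.94. In Drop-seq 4 were tested and none was called. The 8 kinases that phosphorylate SR proteins held 1297, 612, 356, 447 and 417 CPM. DYRK1A was the only one tested in 10X and fell by 1.05 on the log2 scale. The 20 other regulators held 4896, 4390, 4616, 2160 and 3615 CPM, led by PCBP2 in all libraries but 10X at 35 cycles, where SFPQ led. Of the 6 tested in 10X, RBM25 rose by 1.20 on the log2 scale and the other 5 were not called.

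The 10 NMD factors held 920, 1024, 842, 506 and 749 CPM. SMG1, a kinase of the decay pathway, led in 10X with 86 and 73 counts, and UPF2 led in Drop-seq with 78, 18 and 48 counts. Retained-intron transcripts made up 52.3% and 28.9% of the counts of these factors in 10X and 0% in all 3 Drop-seq libraries.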

How the data were processed

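The deposited matrices, 5 in all, hold UMI counts as whole numbers for each pair of cell barcode and Ensembl transcript, without normalization by the authors. Base calling used Guppy and mapping used minimap2 against human hg38 and mouse mm10 transcripts with Ensembl annotation. UMI-tools counted the 10X reads. For Drop-seq the methods give both UMI-tools and a homotrimer script, and the choice behind these files is not given in the sources used here. The filter behind the differing smallest values is not given either. Stored barcodes had 10 bases.

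Transcripts were matched without version to GENCODE release 44 on hg38, and isoform classes are its biotypes. All 33 MANE transcripts equalled the genome sequence. Human cells had at least 90% human counts, and no doublet caller was run. Poisson, Clopper-Pearson and conditional binomial 95% intervals were exact. They cover counting error only, over molecules that PCR had copied. Ratios used a pseudocount of 0.5 and a minimum of 100 counts, and were called at 2-fold. Detection was thinned to 200 counts per cell. The code ran in Python 3.11.15 (numpy 2.4.6, pandas 2.3.3, scipy 1.17.1, matplotlib 3.10.9). Its ratio calls were tried on simulated, independent Poisson counts with median-of-ratios scaling. That check does not cover the CPM scaling of the main calls, or transcripts that share molecules.

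The members and lists were chosen with earlier results of these data known. Values in every library are given for the 12 members with the highest mean level, for the 3 highest and 3 lowest ratios of each pair, and for the 6 most abundant transcripts of the retained-intron and NMD classes. Further members were named after their values were seen. Alternatives changed the cells, purity, smallest value, transcripts summed, scaling, minimum, pseudocount and thinning, and the 3 added after seeing the data left out HNRNPU, added HNRNPA1 pseudogenes, or left out values below 3 with the human cells kept.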

Additional observations from a re-analysis of the deposited data

Results flagged for a closer look

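The direction of the 35 over 30 cycle ratio differed between 10X and Drop-seq for 3 members tested on both platforms, and the difference between platforms was not tested. HNRNPA1 stood at 1.37 in 10X and -0.37 in Drop-seq on the log2 scale. HNRNPC stood at 0.55 and -0.21, and HNRNPU at 0.051 and -0.49. The human cells and the smallest stored value differed between the platforms as well.

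Members were also counted in barcodes outside the cells, which entered no comparison. They held 10473 and 8323 CPM there in 10X at 30 and 35 cycles. In Drop-seq they held 14641, 17769 and 17604 at 25, 30 and 35 cycles, above the 9710, 8757 and 9647 inside human cells, while in 10X the values outside were below those inside. The retained-intron share of these counts was 17.0% and 19.3% in 10X and 11.8%, 9.84% and 7.99% in Drop-seq.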

How the results depend on the processing

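Each group was 1 library, so no test between libraries was made, and pairing was limited to the barcodes that libraries shared. The barcodes shared by a pair gave the same calls, HNRNPA1, HNRNPM and SRSF4 higher and HNRNPH1 and SRSF6 lower in 10X and 0 in Drop-seq. No called gene changed direction in any alternative. Of the genes not called, HNRNPU, HNRNPC, HNRNPA2B1, HNRNPDL and SRSF11 in 10X and HNRNPA1 and HNRNPC in Drop-seq changed sign in at least 1 alternative. Of the values recomputed for the main results, 151 stayed within their counting interval (or within 1.5 times a count of genes) and 50 did not. For single genes, 178 stayed and 28 did not.

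Leaving out values below 3 also changed which cells were chosen as human (1141 and 1154 for 10X, 306 for 25-cycle Drop-seq), and moved the summed level to 7159 and 4276 CPM in 10X and 7860 in Drop-seq at 25 cycles, the retained-intron share at 25 cycles to 3.18%, the NMD share in 10X at 35 cycles to 4.29%, and the summed log2 ratio in 10X to -0.74. With 2 members left to test, 0 were called higher in 10X. With the human cells kept, which was chosen after seeing the data, the levels were 5932, 3996 and 8411 CPM, the retained-intron share was 22.5% in 30-cycle 10X and 3.99% in 25-cycle Drop-seq, the NMD share in 10X at 35 cycles was 4.44%, the summed log2 ratio in 10X was -0.57, and 0 of 2 members were higher. Counting only the highest transcript per gene and cell gave levels of 8096, 7018, 7020, 6536 and 7605 CPM, an NMD share of 4.20% in 10X at 30 cycles, retained-intron shares of 4.40% and 9.19% in Drop-seq at 25 and 30 cycles, a log2 ratio of -0.21 in 10X, and 0 higher and 1 lower of 4 members tested.

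HNRNPU left out, which was chosen after seeing the data, gave retained-intron shares of 12.5%, 13.7%, 4.36%, 4.47% and 4.08%. Transcripts without a defined coding sequence raised the share to 9.12%, 17.7% and 13.9% in Drop-seq. Halving the cells gave 17.4% in 10X at 35 cycles and a level of 9532 in Drop-seq at 30 cycles. A purity of 95% gave a level of 10550 and an NMD share of 5.50% at 25 cycles, and cells of at least 100 counts gave 10628 in Drop-seq at 35 cycles. Thinning to 100 counts gave shares of cells of 32.8%, 31.0% and 30.3% in 10X at 30 and 35 cycles and Drop-seq at 25, and no thinning gave 33.1% and 34.5% in 10X.

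With the number of cells halved, HNRNPA1 and HNRNPC were called higher and HNRNPH1, HNRNPK and SRSF6 lower in 10X. HNRNPM (1.23) and SRSF4 (1.46) stayed above 2-fold but were under the minimum of counts. Scaling by the median of ratios moved the 10X log2 ratio to 0.18 and left 1 member lower. A minimum of 200 counts left 1 higher and 1 lower in 10X. A minimum of 50 called 2 higher (HNRNPA2B1 and HNRNPK) and 1 lower (HNRNPH1) in Drop-seq, where the minimum of 100 called 0. The causes of these moves were not tested. Few human cells limit the Drop-seq values, as 166 and 165 cells held 588 and 902 member counts.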
